A study of Drosophila melanogaster with 6 samples.

Results

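Gcn5 binding sites were compared between 2 Drosophila cell lines, Kc and S2, that had both received double-stranded RNA against GFP, the control treatment of the study. The members were all Gcn5 ChIP-seq peaks on the arms X, 2L, 2R, 3L, 3R and 4, 9633 of the 14386 peaks deposited for the series. They comprised 4649 of the 5096 peaks of the Kc list and 4984 of the 5062 peaks of the S2 list. Each line was represented by 1 library, so every difference is described without a test. ChIP-seq (chromatin immunoprecipitation followed by sequencing) recovers DNA crosslinked to a protein, and a peak is a stretch of the genome where such DNA is enriched. Cells of both lines were given 90 µg of GFP double-stranded RNA per 6000000 cells, and Gcn5 was precipitated with 5 µg of a polyclonal antibody raised in rabbit. Another list, from Kc cells given CP190 double-stranded RNA in the same dose, served as another Kc library, although under another treatment. The 3 input libraries were not analysed here.

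Gcn5 is the enzyme that transfers acetyl groups to histone H3 within the coactivator complexes SAGA and ATAC, which act at promoters and enhancers of active genes. Kc and S2 are both lines of embryonic origin with properties of blood cells. Kc cells are of female and S2 cells of male sex type. In male flies and in S2 cells the MSL complex raises transcription from the X chromosome, and in females it does not assemble. Chromosome 4 is very small, and its active genes lie within heterochromatin and are bound by the chromosome-specific protein Pof.

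The lists resembled each other in size and extent. The median peak on the arms measured 1314 bp in Kc (quartiles 1093 and 1826 bp) and 1211 bp in S2 (948 and 1763 bp), and the lists covered 7.51 and 7.55 Mb. Peak scores are the authors' own and were used as ranks within a list. Scores began near 50 in both lists and ended at 1789.14 in Kc and at 3213.92 in S2. In S2, 8 peaks share the score 3100, which lies above every score of the Kc list. The unplaced sequences U and Uextra held 401 Kc peaks and 21 S2 peaks. Whether the S2 reads and peaks were processed like those of Kc is not given in the sources used here, and in the widths and scores below the cell line and such a difference cannot be told apart. Sequencing depth is unknown for both libraries, so a peak missing from a list was not called, and Gcn5 may still have been present. Coordinates are on the dm3 build. Genes are not named, because no dm3 annotation was used here.

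The largest class of Gcn5 sites was common to both lines, and each line added a large set of its own. Joining overlapping peaks of the 2 lists gave 6562 sites on the arms. Of these, 2948 held a peak of both lines (44.9%, 95% exact binomial interval 43.7 to 46.1%), 1647 a Kc peak alone (25.1%, 24.1 to 26.2%) and 1967 an S2 peak alone (30.0%, 28.9 to 31.1%). Intervals here and below cover counting error only. Counted as peaks, 64.6% of Kc peaks (3002 of 4649) and 60.5% of S2 peaks (3017 of 4984) overlapped a peak of the other line by at least 1 bp. These 2 shares are the background for the counts by arm and score below.

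Few one-to-one pairs and few unshared peaks lay within 100 bp of the limit of the overlap rule. Stricter rules did lower the shares, as given in the closing section. Among the 2840 pairs in which 1 Kc peak met 1 S2 peak and neither met another, the smallest overlap was 12 bp, 1 pair overlapped by less than 100 bp and the median overlap was 1150 bp. Just outside the rule, the nearest unshared peaks lay 17 bp from a peak of the other line, and 14 unshared Kc peaks and 24 unshared S2 peaks lay within 100 bp of one. Less than 1000 bp from one lay 135 unshared Kc peaks (8.20%) and 198 unshared S2 peaks (10.1%). Most peaks of one line stood well apart. The median distance to the nearest peak of the other line was 7377 bp for unshared Kc peaks (quartiles 3102 and 15757 bp) and 7126 bp for unshared S2 peaks (2736 and 16823 bp). At least 50 kb separated 35 of the Kc and 77 of the S2 peaks from any peak of the other line.

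The division into common and line-specific sites stood apart on chromosome 4 and differed by less among the 5 large arms. Sites of both lines made up 49.0% of the 1117 sites on X (46.0 to 51.9%), the largest share, and 41.1% of the 1272 sites on 2L (38.4 to 43.9%), the smallest among the large arms. X was the only large arm with more Kc-only sites than S2-only sites, 292 against 278. On 2R both lines had 324 sites of their own. On 2L the S2 line had 442 and Kc 307, and on 3L these numbers were 412 and 297. On 3R they were close, at 442 and 423.

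**Figure D1:**
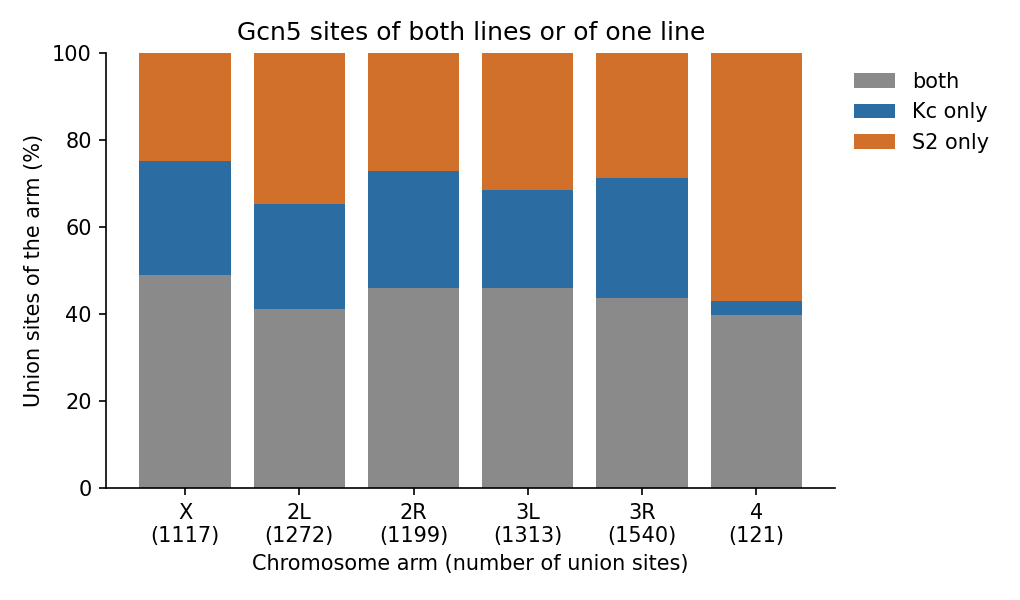
Share (%) of Gcn5 sites on each chromosome arm that held a peak of both lines (grey), of Kc alone (blue) or of S2 alone (orange), with the number of sites under each arm; each line has 1 library. The S2-only share is between 24.9% and 34.7% on the large arms and 57.0% on chromosome 4, where 4 of 121 sites were Kc-only.

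Chromosome 4 carried the most lopsided set. S2 cells had 119 Gcn5 peaks there, 2.39% of the list (1.98 to 2.85%), and Kc cells 53 peaks, 1.14% (0.855 to 1.49%). Nearly all Kc sites of this chromosome were also S2 sites, 49 of 53 peaks (92.5%, 81.8 to 97.9%), whereas 50 of the 119 S2 peaks had a Kc partner (42.0%, 33.0 to 51.4%). The S2 peaks covered 225.7 kb and the Kc peaks 91.43 kb. The S2-only peaks of this chromosome had a median score of 89.5, close to the 90.8 of unshared S2 peaks on all arms, and its shared S2 peaks had one of 356, against 260 on all arms. One S2-only peak was strong, at 679278 to 685806, with a score of 944.24 and rank 337 of 4984.

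S2-only sites made up 57.0% of the 121 sites of chromosome 4, so that many had another S2-only site as neighbour. Runs of at least 3 consecutive S2-only sites were found at 10 places and held 42 of the 69, which is given as a description of their order and not as clustering beyond their share, the largest being 6 sites at 171096 to 187687 and 6 sites at 645468 to 689821. Runs of 5 followed at 112315 to 134153 and at 923212 to 946602. Runs of 4 lay at 1022553 to 1050459 and at 1167946 to 1203949. The 4 runs of 3 sites began at 74927, 94242, 208456 and 1082218. Common sites formed 4 such runs, at 224964 to 249051, 427032 to 466432, 486804 to 511773 and 575008 to 632733, all within a part of the chromosome that had no S2-only run of 3. Kc had 4 sites of its own on this chromosome and no run of 3. The Kc CP190 RNAi list held a peak at 5 of the 69 S2-only sites of chromosome 4 (7.25%), beside 14.1% of S2-only sites on all arms.

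The stronger a peak, the more often it was common to the lines. In the highest score decile 95.3% of Kc peaks (92.9 to 97.0%) and 95.6% of S2 peaks (93.4 to 97.2%) had a partner. In the lowest decile the shares were 39.6% (35.1 to 44.2%) and 29.1% (25.2 to 33.3%). The shares fell from each decile to the next in both lists. In each of the 4 highest deciles S2 peaks had the higher share, with intervals that overlapped those of Kc. Below these Kc peaks did, and in decile 6 the shares were 61.4% in Kc (56.8 to 65.9%) and 51.6% in S2 (47.1 to 56.1%). The 10 highest-scored peaks of each list were all common to both.

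**Figure D2:**
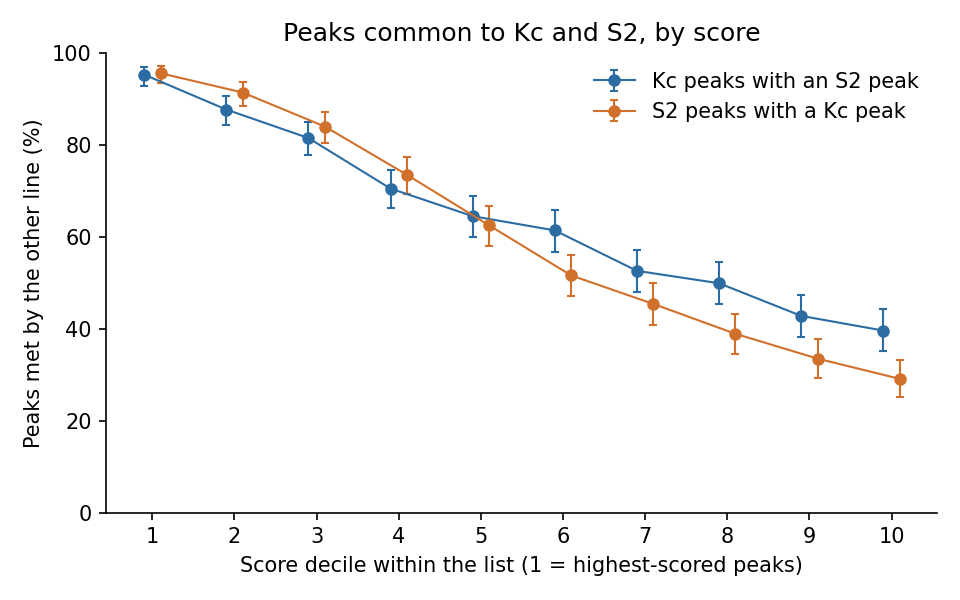
Share (%) of Gcn5 peaks overlapped by a peak of the other line, by score decile within the peak's own list (1 = highest scores), for Kc (blue) and S2 (orange), 1 library each; bars are exact 95% binomial intervals. The shares fall from 95.3% to 39.6% in Kc and from 95.6% to 29.1% in S2.

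Width separated common from line-specific sites in S2 and hardly in Kc. The median S2 peak measured 1319 bp with a Kc partner and 1047 bp without. In Kc these medians were 1310 and 1321 bp. In the narrowest width quintile of the S2 list 36.9% of peaks were shared (33.9 to 40.0%), and in the widest 72.7% (69.8 to 75.5%). The corresponding Kc shares were 65.1% (61.9 to 68.2%) and 67.9% (64.7 to 70.9%).

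A small number of strong peaks were nevertheless limited to one list. The strongest Kc peak without an S2 partner, at 3R 8327373 to 8333609, ranked 59 in its list and lay 3203 bp from the nearest S2 peak. The strongest S2 peak without a Kc partner, at 2L 9656891 to 9658089, ranked 56 and lay 39661 bp from the nearest Kc peak. Both sets of 10 strongest unshared peaks thus included sites close to a peak of the other line and sites far from any.

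Among the 10 strongest unshared Kc peaks, 3 lay within 3 kb of an S2 peak, at X 21228453 to 21229936 (2344 bp away), 3R 27043984 to 27048011 (1673 bp) and X 19387889 to 19391803 (1022 bp). Far from any S2 peak lay 3L 24456928 to 24458022 (70736 bp), 3R 8745574 to 8751510 (54286 bp), X 19611218 to 19613012 (42977 bp) and 3L 602627 to 605559 (39894 bp). The last 2 were 2R 16883239 to 16888543 and 2R 156037 to 161367, at 18026 and 6473 bp. Several of the 10 were broad, the 5 widest measuring from 4028 to 6237 bp, against a list median of 1314 bp. The Kc CP190 RNAi list held a peak at 6 of the 10, beside 66.7% of all Kc-only sites.

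Among the 10 strongest unshared S2 peaks, 3 lay within 3 kb of a Kc peak, at 2L 16846732 to 16849428 (2754 bp away), 3L 14598223 to 14599277 (1048 bp) and 2L 16550957 to 16552088 (1020 bp). The site at X 12552521 to 12554112 was 3200 bp away and that at 4 679278 to 685806 was 4927 bp away. Those at 2L 12454434 to 12457800, 2R 10434185 to 10435678 and 2R 11372114 to 11373880 were 9271, 9442 and 12281 bp away. The site at 3L 10313655 to 10315477, ranked 351, was 35118 bp from the nearest Kc peak. The Kc CP190 RNAi list held a peak at 2 of the 10, beside 14.1% of all S2-only sites. These were the sites on chromosome 4 and at 2L 12454434.

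Peaks of the Kc CP190 RNAi list were also counted at the sites of each class. The classes are defined by presence or absence of a Kc control peak. A higher share at Kc-only than at S2-only sites in another Kc library follows largely from that definition, and nothing is read from it. Common sites had a peak in the Kc CP190 RNAi list in 1537 of 2948 cases (52.1%). Kc-only sites had a peak in the Kc CP190 RNAi list in 1098 of 1647 cases (66.7%, 64.3 to 68.9%), beside 57.0% of all Kc peaks. S2-only sites had one in 278 of 1967 cases (14.1%, 12.6 to 15.8%), beside 36.9% of all S2 peaks. Most Kc-only sites were thus called in 2 Kc libraries, and 1689 S2-only sites, which by definition lack a Kc control peak, had none in the CP190 RNAi list. On the large arms 64.6% to 69.9% of Kc-only sites had a peak in that list. Of S2-only sites, the shares ran from 10.2% on 2L to 18.8% on 2R. The lists differ in line, treatment and library at once, and these cannot be told apart.

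Common sites kept their place in the ranking only in part. The 2840 pairs were ranked by score among themselves in each list, so that both rankings have the same length. Across pairs the ranks in Kc and S2 had a Spearman rho of 0.50, a description of 2 libraries in which pairs on neighbouring sites are not independent. The same score quintile in both lines was held by 967 pairs (34.0%, 32.3 to 35.8%), and the same or the next quintile by 2054 (72.3%). The median change was 502 ranks. A change of at least 1000 ranks was seen in 632 pairs (22.3%), of which 312 stood higher in S2 and 320 higher in Kc.

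More pairs kept their quintile at the top of the ranking than elsewhere. Of the 568 pairs in the highest Kc quintile, 294 were also in the highest S2 quintile, 131 in quintile 2, 65 in quintile 3, 54 in quintile 4 and 24 in the lowest. In the other direction 20 pairs of the highest S2 quintile were in the lowest Kc quintile. In the middle quintile of Kc the pairs were spread more evenly over the S2 quintiles, from 72 in the highest to 146 in the middle one. The lowest quintile of both lines was held by 215 pairs. Pairs at either end of a ranking can move in a single direction only, so these counts do not compare stability along the ranking.

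**Figure D3:**
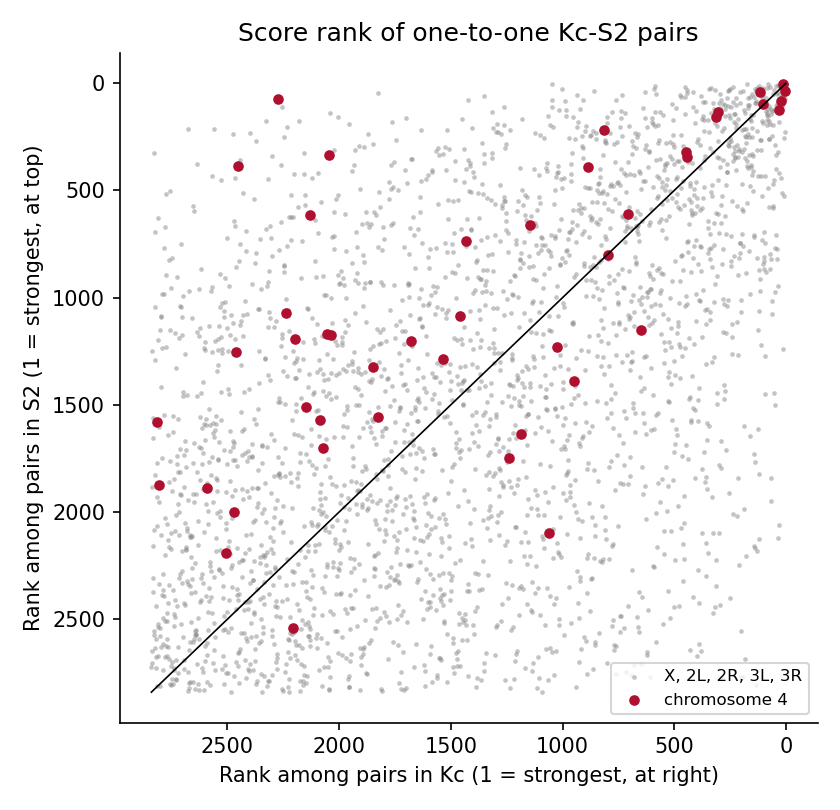
Score rank of each of the 2840 Kc-S2 pairs in Kc (horizontal, 1 = strongest, at right) and in S2 (vertical, 1 = strongest, at top), 1 library each, with the line of equal rank; the 45 pairs on chromosome 4 are red. Pairs at the top right are strong in both lines, and 34 of the 45 chromosome 4 pairs lie above the line, ranked higher in S2.

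The strongest common sites included 2 on X and 2 on chromosome 4. The pair with the best mean rank, at 3R 13440532 to 13443907 in Kc, ranked 1 in Kc. In S2 it had rank 5, averaged over the pairs tied at a score of 3100. The pairs at 3L 14182451 to 14184659 and 2R 21069933 to 21071349 followed, at Kc ranks 2 and 4. On chromosome 4 the pair at 854826 to 857099 ranked 12 in Kc and 5 in S2, and the pair at 1133056 to 1134734 ranked 5 and 36. On X the pair at 15956386 to 15958155 ranked 8 and 11, and the pair at 17425546 to 17427162 ranked 15 and 16. The strongest S2 peak of all, with a score of 3213.92, was paired with a Kc peak at 2R 1578879 to 1581858 that ranked 19. The pairs at 3R 3604978 to 3606945 and 2R 20971313 to 20974054 completed the 10, at Kc ranks 25 and 29 and S2 ranks 9 and 12. Of the 10 sites, 3 had a peak in the Kc CP190 RNAi list, beside 50.9% of all 2840 pairs and 53.3% of those in the highest Kc quintile.

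Some sites that were prominent in Kc were marginal in S2. The pair at X 21834420 to 21835186 ranked 136 in Kc and 2808 of 2840 in S2, where the peak measured 452 bp and its score was 52.03. The pairs at 2R 9301708 to 9303110, 3R 23097290 to 23101939 and X 5808935 to 5815277 had Kc ranks of 194, 200 and 184 and S2 ranks of 2768.5, 2770 and 2686. The last of these was broad in both lines, 6343 bp in Kc and 6029 bp in S2. The other 6 of the 10 largest changes in this direction were at 2R 11267633, 2L 419008, X 19545230, 3L 4261377, 2R 8478747 and 3R 4112188. Their Kc ranks ran from 201 to 431 and their S2 ranks from 2554 to 2775. Of these 10 pairs, 9 had a peak in the Kc CP190 RNAi list and 3 lay on X, beside 53.3% with such a peak among the 568 pairs of the highest Kc quintile and 18.5% on X among all pairs.

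The opposite set was prominent in S2 and marginal in Kc. The pair at 3L 4439914 to 4440889 ranked 2829 in Kc and 325 in S2, with a score of 51.11 in Kc, just above the lowest score of that list. The pair at 3L 21618783 to 21619793 ranked 2676 and 215, and the pair at 3R 12902638 to 12907384 ranked 2560 and 213 and was broad in both lines (4747 and 4586 bp). On chromosome 4 the pair at 1235221 to 1236872 ranked 2275 in Kc and 72 in S2, and its peak was 1652 bp wide in Kc and 4574 bp in S2. The other 6 were at 2R 10423760, 2R 18021033, 3R 7946650, 2L 12402462, 3R 27089241 and 2L 4725708. Their Kc ranks ran from 2397 to 2808.5 and their S2 ranks from 232 to 628. Of these 10 pairs, 3 had a peak in the Kc CP190 RNAi list, beside 42.6% of the 568 pairs of the lowest Kc quintile, and none lay on X. Both sets of 10 were chosen by their Kc rank among other values, and nothing is read from these counts.

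Ranks moved upward in S2 most clearly on chromosome 4. Of the 45 pairs on chromosome 4, 34 ranked higher in S2 (75.6%, 60.5 to 87.1%), beside 51.0% of all pairs, and the median rise was 373 ranks. On the autosomal arms 2L, 2R, 3L and 3R, 1171 of 2269 pairs ranked higher in S2 (51.6%, 49.5 to 53.7%). On X, 242 of 526 did (46.0%, 41.7 to 50.4%), with a median rank of 1342 in Kc and 1536 in S2. On 2L, 55.0% ranked higher in S2 (50.5 to 59.4%), and on 3R 48.1% (44.2 to 52.1%). With the Kc CP190 RNAi list in place of the Kc control list, 27 of 31 pairs on chromosome 4 ranked higher in S2 (87.1%, 70.2 to 96.4%).

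X sites differed from autosomal sites in the width of their peaks. On X the Kc peak was the wider of the pair in 428 of 526 cases (81.4%, 77.8 to 84.6%), beside 55.5% of all pairs. On the autosomal arms it was the wider in 1133 of 2269 (49.9%, 47.9 to 52.0%). The median Kc to S2 width ratio was 1.165 on X (quartiles 1.045 and 1.398) and 1.000 on the autosomal arms (0.855 and 1.123). Peak width can depend on depth and fragment size, which are unknown for these libraries. The contrast made here is between arms within the same 2 libraries. Depth on single arms was not examined, and whether it differed between X and the autosomal arms was not tested.

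The difference lay in the S2 list. S2 peaks had a median width of 1046 bp on X (quartiles 881 and 1430 bp) and 1243 bp on the autosomal arms (965 and 1833 bp). In Kc the medians were 1318 and 1312 bp. S2 peaks on X were narrower in each score quintile, with medians of 1220 bp on X and 1446 bp on the autosomal arms in the highest and 878 bp and 1058 bp in the lowest. In Kc the highest quintile went the other way, with 1707 bp on X and 1539 bp on the autosomal arms, and the lowest had 1139 and 1149 bp. S2-only peaks on X had a median width of 941.5 bp, against 1071 bp for S2-only peaks on the autosomal arms, so the narrower width was not limited to common sites.

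The width contrast between X and the autosomal arms was also present when pairs were split by direction of rank change or by rank in either list. Ranks were not matched in both lists at once. Among X pairs that ranked higher in S2, the Kc peak was still the wider in 182 of 242 (75.2%, 69.3 to 80.5%), and among the other X pairs in 246 of 284 (86.6%, 82.1 to 90.4%). On the autosomal arms these shares were 45.3% (42.4 to 48.2%) and 54.9% (51.9 to 57.9%). By quintile of Kc rank, the Kc peak was the wider in 75.6% to 83.2% of X pairs and in 45.4% to 53.9% of autosomal pairs. By quintile of S2 rank the ranges were 77.0% to 92.5% and 37.3% to 60.0%.

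The contrast was seen in most windows of X. In windows of 2 Mb with at least 10 pairs, the median width ratio exceeded 1 in all 11 windows of X, from 1.010 to 1.326, and in 23 of 49 autosomal windows, from 0.851 to 1.119. The ratios of 9 X windows, from 1.145 to 1.326, were above that of every autosomal window. At least 70% of the pairs were wider in Kc in these 9 X windows and in 6 of the 49 autosomal windows. The other 2 X windows were inside the autosomal range, at 12000001 to 14000000 (62.9% of 35 pairs, ratio 1.079) and 20000001 to 22000000 (54.2% of 24 pairs, ratio 1.010). Beyond 22000000 no window of X held 10 pairs. The highest share on X was 90.2% of 51 pairs, at 6000001 to 8000000.

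Arms of the autosomes also differed among themselves, by less. The Kc peak was the wider in 40.4% of pairs on 2L (36.0 to 44.8%) and in 59.8% on 2R (55.5 to 64.0%), the 2 arms of one chromosome. On 3L and 3R the shares were 51.0% (46.9 to 55.1%) and 48.1% (44.2 to 52.1%). On chromosome 4 the Kc peak was the wider in 16 of 45 pairs (35.6%, 21.9 to 51.2%). The lowest median ratio of any window, 0.851, was on 3R at 24000001 to 26000000, and 2L had 2 windows nearly as low, from 16000001 to 20000000, with ratios of 0.855 and 0.859.

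The Kc CP190 RNAi library repeated the order of the arms. Against S2, its peak was the wider in 249 of 344 pairs on X (72.4%, 67.3 to 77.0%) and in 457 of 1351 on the autosomal arms (33.8%, 31.3 to 36.4%), with 2L again lowest among the large arms (26.7%, 21.6 to 32.4%) and 2R the highest autosomal arm (40.9%, 35.8 to 46.2%). Between the 2 Kc libraries the control peak was the wider in 72.4% of X pairs (68.3 to 76.4%) and 70.5% of autosomal pairs (68.4 to 72.4%), and on the single arms in 67.4% to 74.2%. The comparisons share lists with each other, so they are not independent. The comparisons with S2 rest on 1 S2 library, and a property of that library or its processing cannot be told apart from one of S2 cells.

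**Figure D4:**
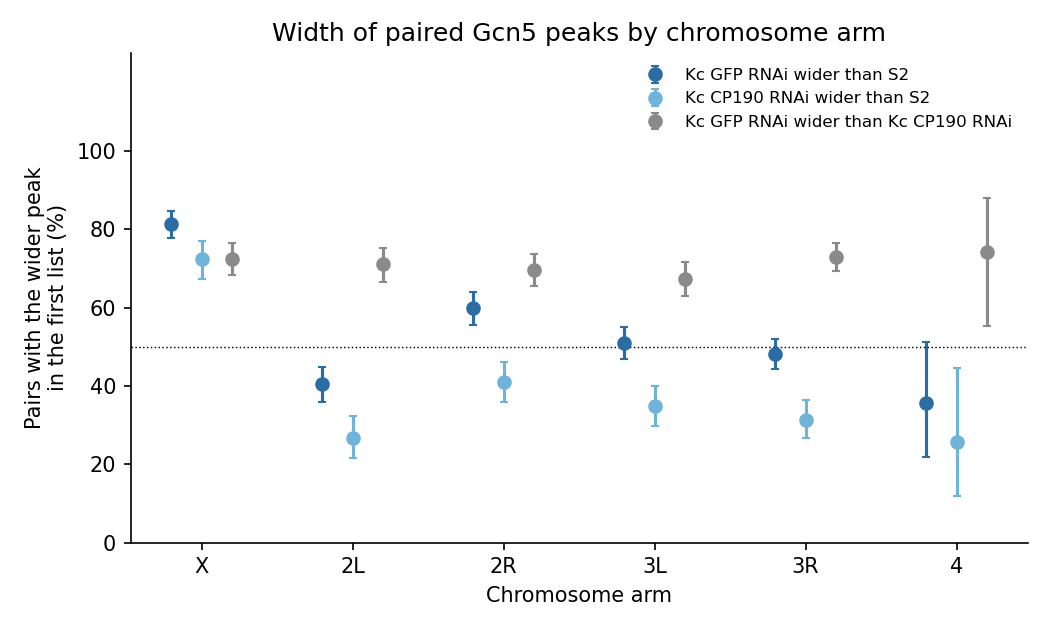
Share (%) of paired Gcn5 peaks in which the peak of the first list was the wider, by chromosome arm, for Kc GFP RNAi against S2 (dark blue), Kc CP190 RNAi against S2 (light blue) and Kc GFP RNAi against Kc CP190 RNAi (grey), 1 library per list; bars are exact 95% binomial intervals and the dotted line marks 50%. X stands above the other arms in both comparisons with S2 (81.4% and 72.4%), whereas the grey points lie between 67.4% and 74.2% on every arm.

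The largest width differences were found at single sites on several arms. The Kc peak at 3R 6022445 to 6029998 measured 7554 bp and met an S2 peak of 1069 bp, a ratio of 7.07, although the S2 peak ranked higher (306 against 1507). The next ratios were 5.36 at 3R 10955778 to 10960831, 4.44 at X 15212187 to 15215056, 4.32 at X 6210718 to 6213000 and 4.13 at 2R 5285674 to 5289849. In the other direction, the S2 peak at 3L 3245415 to 3253015 was 7601 bp wide and the Kc peak within it 1159 bp, an S2 to Kc ratio of 6.56. It was followed by ratios of 5.84 at 3L 10686622 to 10692185, 5.16 at 3R 15047451 to 15053206, 5.13 at 4 62595 to 67476 and 4.89 at 2L 22425959 to 22433574.

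The broadest peaks were partly common. The broadest S2 peak, 8197 bp at 2R 19944304 to 19952500, ranked 85 in its list. All 5 of the broadest S2 peaks had a Kc partner, beside 72.7% of the widest S2 quintile. The other 4 ranked between 2472 and 3185, at 2L 5975567 to 5983745, 3L 3191624 to 3199784, 2L 22425959 to 22433574 and 3L 3245415 to 3253015. Of the 5 broadest Kc peaks, 3 had an S2 partner, beside 67.9% of the widest Kc quintile. With 5 peaks a list, no contrast between the lines is read from these counts. The peak at 3L 3191803 to 3199698 ranked 40 in Kc, was 7896 bp wide, and met the S2 peak at 3L 3191624, which was 8161 bp wide and ranked 2906 in its list. The broadest Kc peak, 8930 bp at 3L 626942 to 635871, ranked 3330 and lay 54172 bp from any S2 peak. The shared Kc peak at 3R 17121104 to 17128485 ranked 228, and the Kc peak at 2L 15586204 to 15593909 ranked 4040 and was not shared.

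Along the arms, peak numbers of the lines moved together. Across 243 windows of 500 kb the Kc and S2 numbers had a Pearson r of 0.65 and a Spearman rho of 0.64, a description of windows that share 2 libraries. S2 had more peaks in 130 windows, Kc in 90, and in 23 the numbers were equal. They were within 5 peaks of each other in 164 windows.

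The 3 windows with the largest excess in S2 were the 3 windows of chromosome 4. They held 49 S2 and 24 Kc peaks, 38 and 18, and 32 and 11, in their order along the chromosome. Outside chromosome 4, in windows chosen after the values were seen, 3L 13500001 to 14000000 held 28 S2 and 11 Kc peaks, and 2L 22000001 to 22500000 held 26 and 11. The 3 windows with the largest excess in Kc were 3R 25500001 to 26000000 (30 Kc and 16 S2 peaks), 3L 1500001 to 2000000 (29 and 17) and 2R 19500001 to 20000000 (35 and 24). An excess of at least 10 peaks was seen in 24 windows for S2 and in 6 for Kc.

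**Figure D5:**
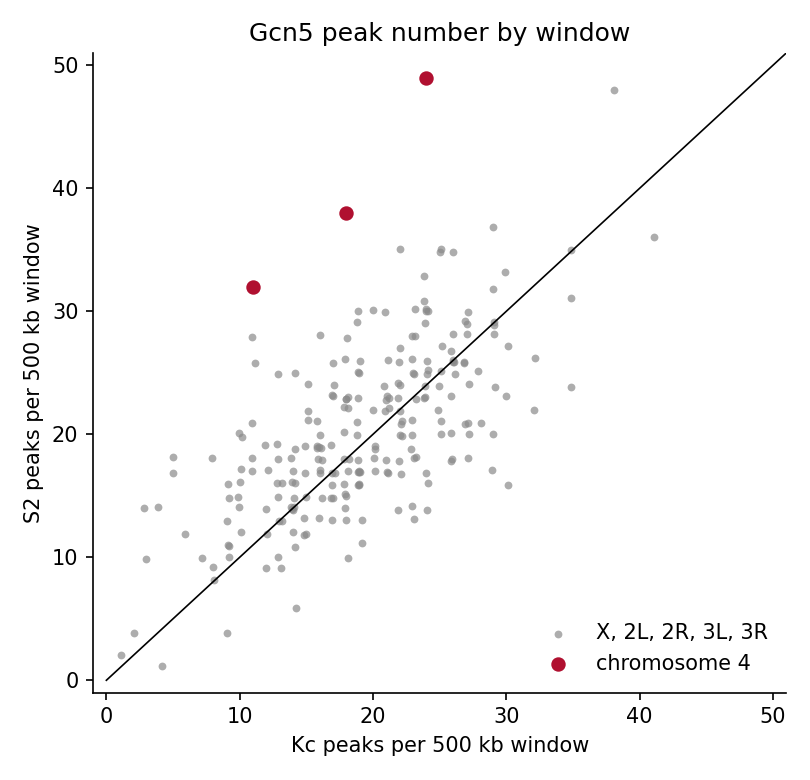
Number of Gcn5 peaks per 500 kb window in Kc (horizontal) and S2 (vertical), 1 library each, with the line of equal numbers; grey points on the large arms are shifted at random by up to 0.2 peaks so that they can be told apart. The 3 windows of chromosome 4 (red) lie at 24 and 49, 18 and 38, and 11 and 32 peaks, above the line.

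Runs of line-specific sites were also counted on the 5 large arms. Of the 1643 Kc-only sites there, 513 stood in 135 runs of at least 3 consecutive sites (31.2%), and of the 1898 S2-only sites, 557 stood in 148 such runs (29.3%). The 2900 common sites had 1400 in 354 such runs (48.3%), the longest with 11 sites. A more frequent class forms more runs, and on all arms common sites made up 44.9%, Kc-only 25.1% and S2-only sites 30.0%. The run shares are thus a description of order and not of clustering.

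The longest Kc-only run had 10 sites at X 11480709 to 11516996, and the first 7 of them were evenly spaced. Their starts lay between 2048 and 2135 bp apart, and the peaks were 1056 to 1723 bp wide with scores from 165.25 to 282.85. The Kc CP190 RNAi list held 7 peaks in the same interval, spaced by 2052 to 2134 bp, with scores from 58.43 to 92.07. All 10 sites of the run had a peak in that list, beside 66.7% of all Kc-only sites. By definition none had one in S2, where no peak was called over 95.9 kb. Whether the sequence there is repeated was not examined, as no dm3 genome was used here.

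The second Kc-only run had 8 sites at X 19562160 to 19643469, within 109 kb that held no S2 peak. It includes the peak at X 19611218 to 19613012, one of the 10 strongest unshared Kc peaks. Of the 8 sites of the run, 6 had a peak in the Kc CP190 RNAi list, beside 66.7% of all Kc-only sites. The next run had 7 sites at 3R 25542443 to 25683950, in the window with the largest Kc excess, with scores up to 485.42. Of these 7, 4 had a peak in that list, beside the same 66.7%.

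The longest S2-only run had 10 sites spread over 405 kb, at X 11963894 to 12368838. It filled the longest stretch without a Kc peak on the arms, 442 kb from X 11929984 to 12372084. None of the 10 sites had a peak in the Kc CP190 RNAi list, beside 14.1% of all S2-only sites. Elsewhere in the stretch lay 2 peaks of that list. The S2 scores there ran from 72.73 to 393.00, and the strongest site, at 11963894 to 11964965, ranked 1148 in its list.

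The next S2-only runs were denser. At 3R 16872788 to 16909529, 9 sites stood within 36.7 kb. Of these 9, 1 had a peak in the Kc CP190 RNAi list, beside 14.1% of all S2-only sites. The strongest, at 16889455 to 16892857, ranked 506 with a score of 756.71, and the other 8 had scores from 57.24 to 111.95. At 2L 22442746 to 22645554, 8 sites stood within 203 kb with scores up to 273.35, beside the broad S2 peak at 2L 22425959 that is common to both lines. Stretches without S2 peaks were found too, the longest being 505 kb at 3L 24023814 to 24528758, with 2 Kc peaks.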

How the data were processed

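Each Gcn5 library has 1 list, which gives the position, name and score of every peak. The score is the value the authors deposited from their peak caller, with no normalization between libraries and on a scale that the files do not state. Per the submitters' processing notes, reads were handled with Bowtie, MACS, bedtools and HOMER on build dm3. The sources used here give no settings, and no versions beyond a MACS version tag in the name of the S2 list. Depth is unknown. The S2 list names sequences without the prefix used in both Kc lists, and whether it was made with the same settings was not stated, which could affect widths and scores between lines.

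The prefix of the Kc sequence names was removed, starts were taken as 0-based, and peaks on the 6 arms were kept. The 447 Kc and 78 S2 peaks on other sequences were left out. Peaks overlapping by at least 1 bp were shared; merging them gave the sites. Deciles and quintiles of score or width are within a list. Pairs were ranked among themselves, with ties averaged. Intervals are exact (Clopper-Pearson) at 95%. Python 3.11.15, pandas 2.3.3 and SciPy 1.17.1 were used, and the overlap and pairing steps were tested on simulated data. No p-value is given, because each line has 1 library and peaks are not replicates.

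Named sites followed a rule: the 10 strongest unshared peaks of each list, the 10 pairs of best mean rank, the 10 largest rank changes each way, the 5 largest width ratios each way, the 5 broadest peaks of each list, the 3 longest runs of each line (ties by the longer span), the 3 windows of 500 kb with the largest difference each way and all chromosome 4 runs of at least 3 sites. The comparison and rule were chosen with earlier results of these data known. The split of pair widths by arm, the 2 Mb windows and the spacing within a run were added after the data were seen.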

Additional observations from a re-analysis of the deposited data

How the results depend on the processing

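Of 72 alternative values, 49 stayed within the counting interval of the reported value, or within 1.5 times a reported count. The shares of Kc and S2 peaks with a partner moved to 61.9% and 57.8% when 50% of the counted peak had to be covered, to 58.8% and 54.8% with 50% reciprocal overlap, to 50.4% and 47.0% with centres within 250 bp, and to 67.5% and 64.5% for peaks within 1000 bp. With the counted list at a score of 100 or more they were 74.7% and 73.3%, and with lists of equal length 62.7% and 62.9%. Over all sequences the Kc share was 59.7%. Pairs on the autosomal arms ranked higher in S2 in 56.3% of cases when ranks were percentiles of the whole lists. The alternatives for width by arm were chosen after seeing the data. With widths divided by the autosomal median of each list, the Kc peak was the wider in 72.8% of X pairs and 37.9% of autosomal pairs, and with the Kc CP190 RNAi list in 72.4% and 33.8%; X stayed above the autosomal arms under all 5 alternatives. By covered bp, chromosome 4 made up 2.99% of the S2 list. When both lists were limited to scores of at least 100 there were 1092 Kc-only sites and 1964 common sites, and requiring that score of line-specific sites alone left 777 Kc-only and 884 S2-only sites. No paired analysis was possible because each line has 1 library. Leaving out a library leaves no comparison. Without depth, a site missing from a list cannot be told from one below its detection limit.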
